A study of Mus musculus with 8 samples.

Results

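The genes described are 7 that encode subunits of canonical Polycomb repressive complex 1 (PRC1), the CBX genes Cbx2, Cbx6, Cbx7 and Cbx8 and the polyhomeotic genes Phc1, Phc2 and Phc3. They were found by symbol among the 54418 Ensembl genes of the deposited tables, and each matched 1 identifier. RNA was sequenced from sorted melanocyte stem cells, which supply the pigment cells of each new hair, with 4 libraries from Bmi1-deleted mice and 4 from controls. Bmi1-deleted mice carried Bmi1fl/fl, Tyrosinase-Cre, Dct-rtTA and TRE-H2B-GFP, and controls carried Bmi1fl/fl, Dct-rtTA and TRE-H2B-GFP without Cre. All animals were of a mixed C57Bl-6 and 129Sv background, were fed doxycycline and gave dorsal skin at postnatal day 21. The Cre was driven by regulatory sequence of Tyrosinase, a pigment cell gene, so deletion was directed to the melanocyte lineage. The cells were live, not autofluorescent and GFP-positive, more than 10000 per sample. No label says that the libraries came from separate animals, so the spread behind each p-value may be partly technical.

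PRC1 silences developmental genes together with PRC2. In the canonical form of PRC1 a CBX protein uses its chromodomain to read the histone mark laid by PRC2, a PCGF protein such as Bmi1 pairs with a RING1 ligase that ubiquitinates histone H2A, and a polyhomeotic (PHC) protein polymerises through its SAM domain and gathers complexes into clusters on chromatin. Only 1 CBX and 1 PHC protein occupy a complex at a time, so the paralogs compete for the place beside Bmi1. The best known target, the Ink4a/Arf locus, restrains the self-renewal of stem cells.

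Libraries held between 9076517 and 10368174 estimated counts in the Bmi1-deleted group and between 8882656 and 9466711 in the control group. Bmi1 itself, over the whole gene, was counted 627, 713, 626 and 607 times in Bmi1-deleted libraries 1 to 4, against 796, 743, 705 and 859 times in control libraries 1 to 4. Its groups overlapped in counts but not in CPM, where the log2 change was −0.26 (edgeR adjusted p = 0.607). The deposited TPM of Bmi1, a level per length, was 14.3, 19.5, 11.7 and 7.96 in Bmi1-deleted libraries. Control libraries had 36.4, 35.0, 24.2 and 26.1, so these groups did not overlap either. These TPM were not rescaled. The gene Gm23935 held 73.8% of them in control library 2 and 85.6% in Bmi1-deleted library 4, so libraries are not strictly comparable on this scale. Cdkn2a, the gene of the Ink4a/Arf locus, was counted 85, 50, 38 and 46 times in Bmi1-deleted libraries and 0 times in all 4 control libraries (edgeR adjusted p = 0.00736). Pigment lineage markers were abundant in every library, with a sum over 8 markers of 4867 to 10300 CPM (counts per 1e+06, scaled by TMM) in Bmi1-deleted and 8640 to 14540 CPM in control libraries. Their median log2 change was −0.71, with 0 of 8 past the threshold, and with the replicate block 7 of 8 were lower. Over all tested genes the edgeR fit without the block called 0.0874% higher and 0.00625% lower. With the block, 1.71% of all tested genes were called higher and 0.706% lower. Markers of other skin cells were present as well. The sum over 17 fibroblast markers was 8025 to 17820 CPM in Bmi1-deleted and 4785 to 8235 CPM in control libraries, with 0 or 1 of the 17 markers at 0 in any library. Of 15 fibroblast markers tested, 14 had a positive log2 change and 0 passed, and with the replicate number as a block 6 were higher. Those 6 were all collagen genes, which made up most of the sum, and Fbln1 was the marker with a negative log2 change (−0.74). Other markers were much lower. Dcn ran from 1.47 CPM in Bmi1-deleted library 4 to 65.1 CPM in Bmi1-deleted library 1, and Lum from 0.340 to 22.4 CPM in the same libraries. The 5 Schwann cell markers summed to 3527 to 4662 CPM in Bmi1-deleted and 1946 to 3434 CPM in control libraries, with 0 of 5 past the threshold and 4 of 5 higher with the replicate block. Basal keratinocyte markers summed to 682 to 1511 CPM in Bmi1-deleted and 1034 to 1338 CPM in control libraries. For suprabasal keratinocytes these sums were 134.7 to 620.3 and 143 to 245.8 CPM. Endothelial and mural sums were 21.8 to 99.95 and 20.4 to 37.5 CPM, and immune sums 35.3 to 49.5 and 27.6 to 38.4 CPM. None of these markers passed, and with the replicate block Krt1 was higher. In such bulk libraries, fewer cells of a type and less RNA per cell cannot be told apart.

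Cbx8 showed the clearest difference of the 7 genes, with about 1.90-fold the control level in Bmi1-deleted cells, but it missed the threshold of the fit. All 7 passed the filter on low counts, and with edgeR's quasi-likelihood test and a Benjamini-Hochberg adjusted p under 0.05 as the threshold 0 of the 7 passed in either direction. Among all 16011 tested genes 0.0874% were called higher and 0.00625% lower. At an unadjusted p under 0.05 there were 3 of the 7, all CBX genes and all with higher values in Bmi1-deleted cells, beside 4.82% of all tested genes in that direction, 3.45% in the other and 8.27% in either. The groups did not overlap for 1 of the 7, Cbx8, and 2.79% of all tested genes had every Bmi1-deleted library above every control library (5.18% did not overlap in either direction). By DESeq2, whose Wald test called 0.715% of its genes higher and 0.312% lower, Cbx8 was the 1 member called.

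**Figure D1:**
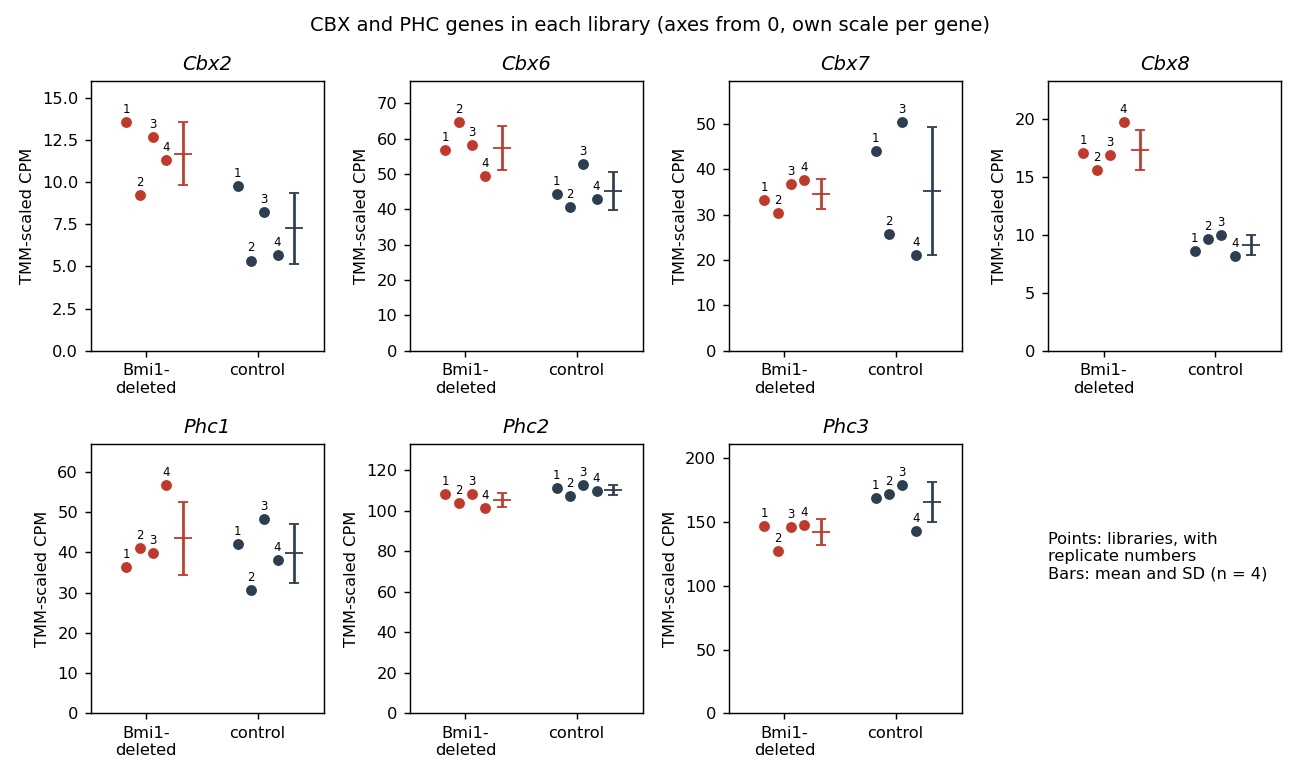
TMM-scaled CPM of the 4 CBX and 3 PHC genes in every library, with Bmi1-deleted libraries on the left and control libraries on the right of each panel. Points are libraries labelled by replicate number and bars are the mean and SD (n = 4). The 4 Bmi1-deleted values of Cbx8 lie between 15.6 and 19.7, above the control values between 8.15 and 9.95, while the groups of the other 6 genes overlap.

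Cbx8 encodes a chromodomain protein known for repressing Ink4a/Arf together with Bmi1 in cultured fibroblasts. The gene (ENSMUSG00000025578) lies on the minus strand of mm10 chromosome 11, from 119036305 to 119040969, and has 3 annotated transcripts in GENCODE release M21. It was counted 155, 157, 152 and 174 times in Bmi1-deleted libraries 1 to 4, against 81, 94, 93 and 72 times in control libraries 1 to 4. Every Bmi1-deleted library was above every control library. Its level averaged 17.3 ± 1.73 CPM in Bmi1-deleted and 9.10 ± 0.859 CPM in control cells (SD, n = 4). The exact two-sided permutation p of this single gene was 0.0286, the smallest that 70 assignments can give. The fitted log2 change was 0.93 (SE 0.22, 95% interval 0.45 to 1.41), with an unadjusted p of 0.00107 and an edgeR adjusted p of 0.166, which placed it 102 among the 16011 tested genes. Libraries with the same replicate number had ratios of 1.99, 1.61, 1.70 and 2.42. Blocking on the replicate number gave an adjusted p of 0.0768, and 1.71% of all genes were then called higher and 0.706% lower. DESeq2 gave an adjusted p of 0.0198. With the set of replicates (1 and 2 against 3 and 4) as a covariate the edgeR adjusted p was 0.0467.

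In counts, the difference of Cbx8 was of similar size in subsets of replicates, with the fibroblast markers as a covariate and with 1 library left out. On TPM it was smaller, 0.59 on log2(TPM + 0.1), rescaled without Gm23935 and CT010467.1, and 0.23 on the deposited log2(TPM + 1), not rescaled. No fit had the Schwann cell or pigment lineage markers as a covariate. Replicates 1 and 2 gave a log2 change of 0.84 and replicates 3 and 4 gave 1.00. With the mean log2 level of the fibroblast markers (fibroblast score) as a covariate, a fit that called 0.119% of all genes higher and 0.0250% lower, it was 1.04 (SE 0.29, edgeR adjusted p = 0.227). Leaving out 1 library at a time gave 0.85 to 0.97, with adjusted p from 0.201 to 0.421.

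The region around the start of Cbx8 is shown because this member had the clearest difference. The RefSeq table of promoter windows (GRCm38.p6, the mm10 assembly), which covers 250 bases before to 50 after a RefSeq start, held windows for 6 of the 7 genes, all but Cbx2. RefSeq starts can differ from the GENCODE coordinates given here. The windows of Cbx6 (79834284 to 79834583), Cbx7 (79932597 to 79932896) and Phc1 (122340178 to 122340477) lie wholly inside the GENCODE genes. So do the Phc2 windows that begin at 128688488 and 128727321. The Cbx6 stretch printed below is therefore within the gene as annotated by GENCODE. CpG-rich starts are where Polycomb complexes are commonly found, and the Cbx8 window held 24 CG dinucleotides, more than 80% of the 32851 windows. The windows of Cbx6 and Cbx7 held 31 and 33, that of Phc1 held 9 and that of Phc3 held 15. The windows of the 3 starts of Phc2 held 19, 2 and 45. The letters CACGTG, an E-box that Mitf and other helix-loop-helix factors can bind, were chosen after the windows had been read. They occur 1 time each in windows of Cbx6, Cbx8, Phc3 and the first start of Phc2, and in 7.15% of all windows. Those windows held 31, 24, 15 and 19 CG, against a median of 7 over all windows. The motif itself contains a CG, so the share over all windows is no matched background. CACGTG reads the same on both strands. A match describes letters only. The whole window of Cbx8 and 60 bases around the match in the other 3 are given 5′ to 3′ on the gene's strand, with the match in capitals.
Cbx8, chr11:119040864-119041163, minus strand: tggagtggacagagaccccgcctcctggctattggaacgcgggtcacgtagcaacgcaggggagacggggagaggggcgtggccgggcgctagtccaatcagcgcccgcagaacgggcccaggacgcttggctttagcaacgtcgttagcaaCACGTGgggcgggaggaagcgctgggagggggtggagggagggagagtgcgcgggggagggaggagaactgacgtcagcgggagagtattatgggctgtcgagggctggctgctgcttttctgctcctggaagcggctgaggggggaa
Cbx6, chr15:79834327-79834386, minus strand: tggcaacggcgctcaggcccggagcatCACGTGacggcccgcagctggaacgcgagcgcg
Phc2, chr4:128654618-128654677, plus strand: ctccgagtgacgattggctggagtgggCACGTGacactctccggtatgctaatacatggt
Phc3, chr3:30969465-30969524, minus strand: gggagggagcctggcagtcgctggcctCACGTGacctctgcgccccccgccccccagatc

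Cbx2, the mouse gene M33, encodes a CBX protein that compacts chromatin and is known for its role in gonad and axial skeleton development. It lies on the plus strand of chromosome 11, from 119022962 to 119031270, and 5034 bases separate it from the end of Cbx8. It had 123, 93, 114 and 100 counts in Bmi1-deleted libraries, against 92, 52, 77 and 50 in control libraries. Its levels were 13.6, 9.24, 12.7 and 11.3 CPM in Bmi1-deleted libraries and 9.78, 5.36, 8.24 and 5.66 CPM in control libraries. Bmi1-deleted library 2 lay below control library 1, and the other 3 Bmi1-deleted libraries lay above all controls. Its log2 change was 0.69 (SE 0.30, 95% interval 0.04 to 1.34, edgeR adjusted p = 0.576), and the exact two-sided permutation p was 0.0571. All 4 same-numbered pairs were higher in the Bmi1-deleted library, with ratios of 1.39 to 2.00. With the fibroblast score as a covariate the log2 change was 0.62 (edgeR adjusted p = 0.634). With sex, inferred from Xist and Y-linked counts, as a covariate it was 0.86 (SE 0.30, edgeR adjusted p = 0.4085). In rescaled TPM Cbx2 had a mean of 5.77 ± 1.26 in Bmi1-deleted and 4.51 ± 1.55 in control cells (SD, n = 4). On rescaled log2(TPM + 0.1) limma gave a log2 change of 0.39 (adjusted p = 0.890). On the deposited log2(TPM + 1), not rescaled, limma gave 0.079 (adjusted p = 0.951). At 50 to 123 counts, counting alone gives a coefficient of variation of 9.02% to 14.1%, beside 16.1% between Bmi1-deleted and 29.2% between control libraries.

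Cbx6 encodes the CBX subunit whose part in PRC1 is the least understood of these 4. The gene lies on the minus strand of chromosome 15, from 79823896 to 79834688, and 10342 of its bases overlap Npcd, an annotated protein-coding gene on the same strand that joins Cbx6 to its neighbour. Npcd was counted 4 times in Bmi1-deleted library 2 and 0 times in the other 7 libraries, and the sharing of reads between both genes makes the level of Cbx6 less certain. Cbx6 had 56.7, 64.7, 58.2 and 49.5 CPM in Bmi1-deleted libraries, against 44.4, 40.7, 52.9 and 42.9 CPM in control libraries. The lowest Bmi1-deleted library, replicate 4, fell within the control range. The log2 change was 0.34 (SE 0.14, 95% interval 0.03 to 0.65, edgeR adjusted p = 0.561; exact two-sided permutation p = 0.0571). The pair ratios ran between 1.10 and 1.59, and the log2 change was 0.51 in replicates 1 and 2 and 0.15 in replicates 3 and 4. With the fibroblast score as a covariate it was 0.27 (edgeR adjusted p = 0.678).

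Cbx7, a repressor of Ink4a/Arf and the main CBX protein of mouse embryonic stem cells, had nearly equal mean CPM in both groups. It lies on the minus strand of chromosome 15, from 79915807 to 79971119, 81118 bases from Cbx6, and 100 of its bases overlap a protein-coding gene on the opposite strand. The kit kept strand but the setting of the quantification is not given, so reads of that overlap are uncertain. Its levels were 33.3, 30.4, 36.8 and 37.6 CPM in Bmi1-deleted libraries, against 44.0, 25.6, 50.4 and 21.2 CPM in control libraries. All 4 Bmi1-deleted values lay inside the control range. Control libraries parted into 1 and 3, which were high, and 2 and 4, which were low. The split was not particular to Cbx7. Control libraries 1 and 3 were also above 2 and 4 for Cbx2, Cbx6, Phc1 and Phc2, but not for Cbx8 and Phc3. Control libraries 1 and 3 were the female ones by Xist and Y-linked counts, as was Bmi1-deleted library 1. That Bmi1-deleted library, at 33.3 CPM, lay within the range of the 3 male ones, 30.4 to 37.6 CPM, and the part of sex in the control spread was not tested. The mean was 34.5 ± 3.34 CPM in Bmi1-deleted and 35.3 ± 14.1 CPM in control cells (SD, n = 4). The log2 change was −0.03 (SE 0.25, 95% interval −0.57 to 0.51, edgeR adjusted p = 0.988), so the interval covers differences in both directions. In the fit with the replicate block the sign turned, at 0.046. In rescaled TPM the mean was 15.6 ± 3.54 in Bmi1-deleted and 30.4 ± 22.5 in control cells (SD, n = 4). On rescaled log2(TPM + 0.1) limma gave a log2 change of −0.70 (adjusted p = 0.812). On the deposited log2(TPM + 1), not rescaled, limma gave −0.79 (adjusted p = 0.848).

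**Figure D2:**
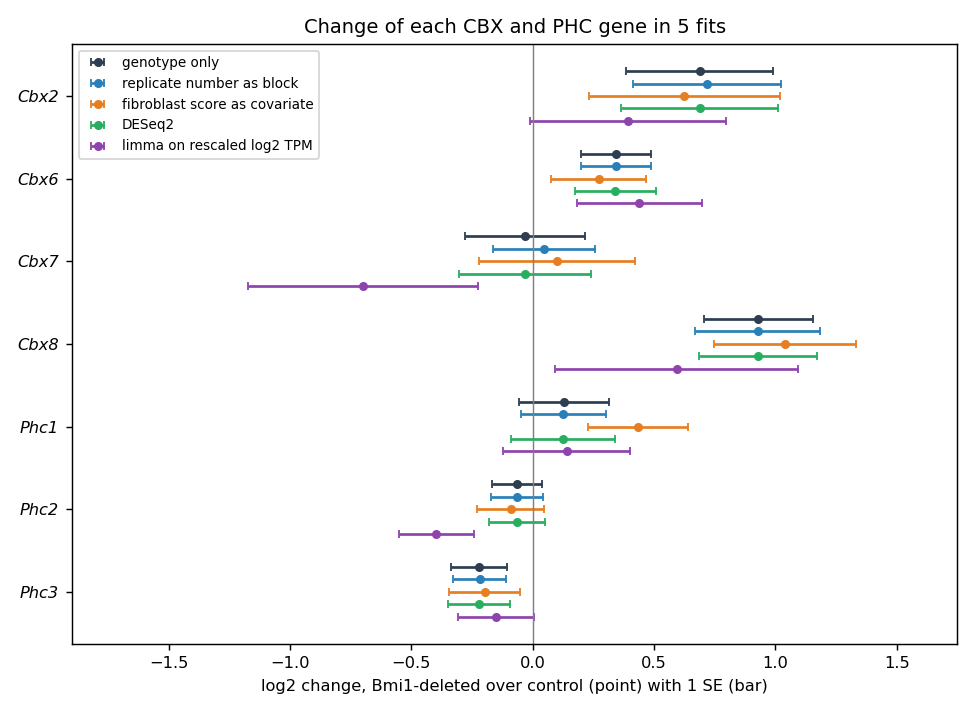
Log2 change of each gene, Bmi1-deleted over control, with 1 SE, in the edgeR fit with genotype only, with the replicate number as a block, with the fibroblast score as a covariate, in DESeq2 and in limma on rescaled log2 TPM. Cbx8 stands at 0.93, 0.93, 1.04, 0.93 and 0.59 in these fits, and Cbx7 and Phc2 stand lower on TPM than in the 4 fits on counts.

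The sum over the CBX genes was 120.7, 119.9, 124.5 and 118.3 CPM in Bmi1-deleted libraries, against 106.8, 81.4, 121.4 and 77.8 CPM in control libraries. Control library 3 reached the Bmi1-deleted range and the other 3 controls were below it. Of the counts of the 4 CBX genes, Cbx8 held 14.4% ± 1.62 in Bmi1-deleted and 9.65% ± 1.86 in control libraries, and Cbx7 held 28.6% ± 2.76 in Bmi1-deleted and 35.4% ± 7.15 in control libraries (SD, n = 4). The shares of Cbx8 ran from 13.0% to 16.7% in Bmi1-deleted and from 8.06% to 11.9% in control libraries. Cbx6 held 47.4% ± 4.96 in Bmi1-deleted and 47.6% ± 6.18 in control libraries. Per length, as shares of the CBX TPM, the groups overlapped for Cbx8, with 25.9% ± 7.72 in Bmi1-deleted and 19.9% ± 12.9 in control libraries. Cbx7 then held 24.4% ± 2.52 in Bmi1-deleted and 42.1% ± 16.4 in control libraries, and Cbx6 held 40.6% ± 7.52 in Bmi1-deleted and 30.0% ± 6.01 in control libraries (SD, n = 4). These shares describe sums over chosen genes and carry no test.

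No polyhomeotic gene passed the test or parted the groups in CPM. Phc1, known as Rae28 and needed in mice for haematopoietic stem cells and for neural crest derivatives, lies on chromosome 6 from 122317731 to 122340561. It had 36.3, 41.1, 39.8 and 56.8 CPM in Bmi1-deleted libraries, against 42.1, 30.7, 48.3 and 38.2 CPM in control libraries. Bmi1-deleted library 4 was the highest of the 8, and the groups otherwise overlapped. Phc1 had a log2 change of 0.13 (SE 0.19, 95% interval −0.27 to 0.53, edgeR adjusted p = 0.929), and with the fibroblast score as a covariate it was 0.43 (adjusted p = 0.512).

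Phc2, whose SAM domain polymer drives clustering of PRC1 and which in mice is needed for axial skeleton patterning, varied least between libraries, with a coefficient of variation of CPM of 3.33% in Bmi1-deleted and 2.14% in control libraries. It spans chromosome 4 from 128654702 to 128752881, with 12 annotated transcripts. Its levels were 108, 104, 108 and 101 CPM in Bmi1-deleted libraries, against 111, 107, 113 and 110 CPM in control libraries. All 4 same-numbered pairs were lower in the Bmi1-deleted library, by ratios of 0.922 to 0.975, while the groups overlapped. The log2 change was −0.06 (SE 0.10, 95% interval −0.29 to 0.16, edgeR adjusted p = 0.939; exact two-sided permutation p = 0.0857). On rescaled TPM, a level per length, the gap was wider, with a mean of 104.5 ± 12.04 in Bmi1-deleted and 137.9 ± 17.8 in control cells (SD, n = 4; limma log2 change −0.40, adjusted p = 0.634).

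Phc3, a further SAM domain protein of the complex, was counted 1264 to 1673 times in a library. It lies on chromosome 3 from 30899371 to 30969415, and 310 of its bases overlap an unverified transcript model on the same strand. Its levels were 147, 127, 146 and 148 CPM in Bmi1-deleted libraries, against 168, 172, 179 and 143 CPM in control libraries. Control library 4 fell within the Bmi1-deleted range and the other 3 controls were above it. Phc3 had a log2 change of −0.22 (SE 0.11, 95% interval −0.47 to 0.03, edgeR adjusted p = 0.661; exact two-sided permutation p = 0.114). Without control library 4 the log2 change was −0.29 (adjusted p = 0.738). The summed level of the 3 PHC genes was 272 to 306 CPM in Bmi1-deleted and 291 to 340 CPM in control libraries. In rescaled TPM that sum was 197.7, 170.0, 203.7 and 186.8 in Bmi1-deleted libraries, against 233.0, 226.2, 213.2 and 231.7 in control libraries, so every Bmi1-deleted library was below every control. A sum over chosen genes carries no test.

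Per length, Phc2 had the highest level of the 7 genes in every library. Levels between genes were compared in the deposited TPM, rescaled without Gm23935 and CT010467.1, which hold most of the TPM of a library. Over the 8 libraries Phc2 had a mean of 121.2 TPM, Phc3 51.6, Phc1 35.0, Cbx7 23.0, Cbx6 22.2, Cbx8 14.5 and Cbx2 5.14. Phc2 exceeded Phc3 and Phc3 exceeded Phc1 in 8 of 8 libraries, by mean log2 ratios of 1.22 ± 0.24 and 0.59 ± 0.39 (SD). Cbx7 and Cbx6 could not be ordered, since Cbx7 was higher in only 3 of 8 libraries and its mean rested on 62.6 TPM in control library 2. Phc1 over Cbx7 (0.81 ± 1.03) and Cbx6 over Cbx8 (0.76 ± 0.90) did not differ beyond their spread either, though each held in 7 of 8 libraries. Cbx8 exceeded Cbx2 by 1.37 ± 0.82 on the log2 scale, in 7 of 8 libraries. Counts per kilobase of merged exons gave Cbx7 over Cbx6 in 5 of 8 libraries (0.12 ± 0.40) and Phc3 over Phc1 in 6 of 8 (0.175 ± 0.32). On that scale Phc1 exceeded Cbx7 in 8 of 8 libraries (0.57 ± 0.33) and Cbx6 exceeded Cbx8 in 7 of 8 (0.49 ± 0.38), both beyond 1 SD. Phc2 over Phc3 (0.80 ± 0.14) and Cbx8 over Cbx2 (0.68 ± 0.34) held in 8 of 8.

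**Figure D3:**
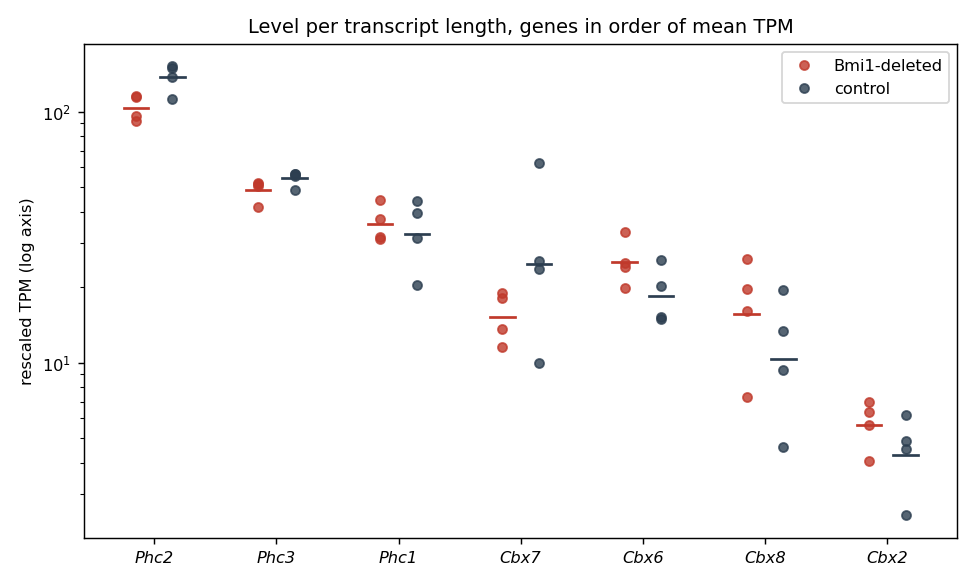
Rescaled TPM of each gene on a log axis, in order of the mean over 8 libraries, with Bmi1-deleted libraries on the left and control libraries on the right of each pair. Points are libraries and lines are geometric means. Phc2 lies between 91.8 and 151.5 TPM and Cbx2 between 2.46 and 6.97 TPM, and control library 2 stands apart for Cbx7 at 62.6 TPM.

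The groups that Cbx8 counts separated overlapped in TPM. Cbx8 had 19.6, 7.30, 16.1 and 25.8 rescaled TPM in Bmi1-deleted libraries, against 19.5, 9.31, 4.63 and 13.4 in control libraries. Bmi1-deleted library 2 and control library 3 were the lowest of their groups, and limma on log2(TPM + 0.1) gave a log2 change of 0.59 (SE 0.50, adjusted p = 0.859). On the deposited log2(TPM + 1), which was not rescaled, the log2 change was 0.23 (SE 0.34, adjusted p = 0.916). There limma called 0.0187% of all genes higher. That scale understates the change of low genes. Its values also differ between libraries by the share of Gm23935, 73.8% to 85.6% of TPM. The part of each was not tested. Counts divided by TPM give the effective transcript length that the quantification assigned, which depends on the mix of isoforms. Scaled to bases by 610 single-transcript genes, that length for Cbx8 was 1513, 3605, 1808 and 1299 bases in Bmi1-deleted libraries, against 782, 1840, 3604 and 1025 bases in control libraries. The annotated transcripts of Cbx8 run between 533 and 3580 bases, and both groups covered most of that range. The SD of its log2 effective length over the 8 libraries was 0.78, larger than that of 99.1% of the 8934 genes that averaged 100 counts or more.

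Cbx7 had an SD of log2 length of 0.84, larger than that of 99.5% of those genes. Its effective length was 4247, 4440, 3494 and 3382 bases in Bmi1-deleted libraries, against 3305, 725, 3314 and 3563 bases in control libraries. Control library 2 alone was short, and it was also the library with 62.6 TPM. For Phc2 the effective length was 1739 ± 126 bases in Bmi1-deleted and 1401 ± 205 bases in control cells (SD, n = 4; exact two-sided permutation p = 0.0857). Phc3 had one of the steadier lengths, 4826 to 5147 bases in Bmi1-deleted and 4931 to 5396 bases in control libraries. The groups overlapped in effective length for all 6 members that had at least 100 counts on average, and 1.67% of the 8934 genes had longer and 1.25% shorter values in every Bmi1-deleted library. Bmi1, by the same measure, had 1566 ± 444 bases in Bmi1-deleted and 908 ± 70.4 bases in control cells (SD, n = 4).

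**Figure D4:**
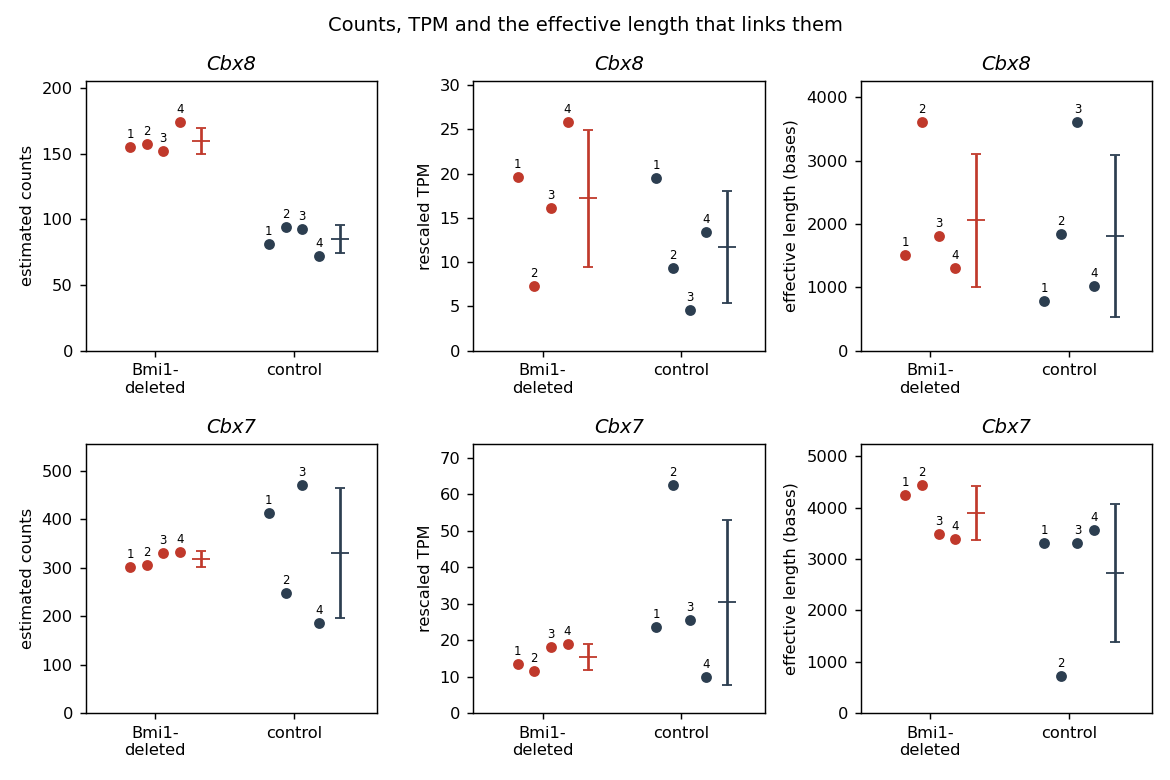
Estimated counts, rescaled TPM and effective length in bases of Cbx8 (upper row) and Cbx7 (lower row), with Bmi1-deleted libraries left of control libraries, points labelled by replicate number, and the mean and SD (n = 4). Cbx8 counts separate the groups, 152 to 174 in Bmi1-deleted and 72 to 94 in control libraries, while its TPM overlap and its effective length spans 782 to 3605 bases.

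Other Polycomb genes were read from lists beside the 7 members. None of the 36 tested genes of these lists passed with edgeR, where 14 genes of all 16011 rose and 1 fell, nor with the replicate block. The median log2 change was 0.13 for the 7 CBX and PHC genes, −0.26 for 7 canonical PRC1 partners including the deleted Bmi1 (−0.12 for the 6 others), −0.04 for 20 genes of variant PRC1, −0.09 for 6 core genes of PRC2 and 0.01 for all tested genes. The groups did not overlap for 7 of the 36 genes. Lower in Bmi1-deleted cells were 5, namely Bmi1, the ligase gene Rnf2, Scmh1, a SAM domain partner of PHC proteins, Cbx3 and Suz12, beside 2.39% of all tested genes in that direction. Higher were 2, Bcor and Bcorl1 of variant PRC1, beside 2.79%. Rnf2 stood at 41.6 ± 2.83 CPM in Bmi1-deleted and 54.1 ± 2.98 CPM in control cells (n = 4, edgeR adjusted p = 0.444). Scmh1 stood at 43.3 ± 7.06 CPM in Bmi1-deleted and 59.6 ± 7.86 CPM in control cells (n = 4, edgeR adjusted p = 0.433), the lowest log2 change of its list, −0.46. The highest was that of Scml2, 0.63 (SE 0.66), at a mean of only 2.18 CPM in Bmi1-deleted and 1.41 CPM in control cells.

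The heterochromatin CBX genes, whose HP1 proteins read another histone mark and are no part of PRC1, gave log2 changes of 0.12 for Cbx5, 0.03 for Cbx1 and −0.30 for Cbx3 (edgeR adjusted p = 0.605 for Cbx3). In variant PRC1, which has RYBP or YAF2 in place of a CBX protein, the highest was Bcor, a corepressor, with 0.35 (adjusted p = 0.468) and the lowest E2f6, a DNA-binding repressor, with −0.43 (adjusted p = 0.721). In PRC2 the methyltransferase gene Ezh2 had the highest log2 change, 0.13 (adjusted p = 0.875), and Suz12, a scaffold subunit, the lowest, −0.39 (adjusted p = 0.428).

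**Figure D5:**
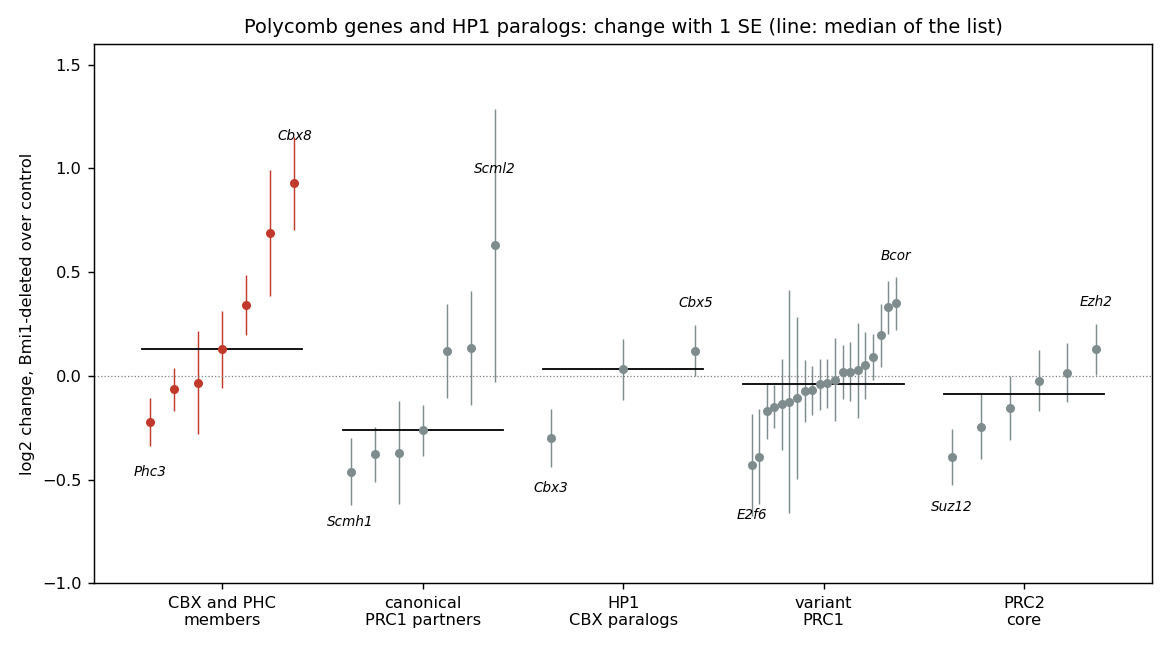
Log2 change, Bmi1-deleted over control, with 1 SE for each gene of 5 lists, sorted within a list, with a line at the list's median. Cbx8 at 0.93 is the highest of all 43 genes shown, and the median of the canonical PRC1 partners, −0.26, is the value of Bmi1 itself.

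Patterns across libraries were compared after centring each gene within its group. Among 8648 other protein-coding genes with a mean of at least 10 CPM, the highest Pearson correlation over the 8 libraries was with Wdr44 for Cbx8 (0.99), Kif7 for Cbx6 (0.99), Smim15 for Cbx7 (0.97), Mllt6 for Phc1 (0.97), Stk19 for Phc2 (0.98) and Mbd5 for Phc3 (0.98). The next were Plk2 for Cbx8 (0.97), Srr for Cbx6 (0.98), Peg10 for Cbx7 (0.96), Pard3 for Phc1 (0.97), Phf23 for Phc2 (0.97) and Bcap31 for Phc3 (0.98). Cbx2 was below that level. Between members the correlations ran between −0.29 for Cbx8 with Phc2 and 0.80 for Cbx8 with Phc3. With 8 libraries and 8648 genes compared, such values are a description of these libraries alone.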

How the data were processed

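Each library has 1 column in each of 2 tables. The authors deposited estimated counts per gene as whole numbers, so rounding changed none; Salmon 1.2.1 and mm10 are named per the submitters' processing notes. The other table holds log2 values, deposited as log2(TPM + 1). The sources used here do not give the annotation or strand setting. Symbols and coordinates are from GENCODE M21, and 54096 of 54418 identifiers had a symbol.

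Counts were filtered with filterByExpr, scaled by TMM and compared with the edgeR 4.0.16 quasi-likelihood test (robust, two-sided, R 4.3.3) over all 16011 genes kept. DESeq2 1.42.0 and limma 3.58.1 were alternatives. The standard error came from the F statistic. The edgeR script was tested on simulated data. Between libraries of a group, chi-square per degree of freedom was 12.4 to 39.5, so none was a duplicate. TPM were rescaled without Gm23935, which held 73.8% to 85.6% of them, and CT010467.1.

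Same-numbered libraries correlated across genes at 0.139 to 0.225 after centring within genotype. Each value was over 0.1, which meets the rule for pairing by the number in the titles. Of the 8 libraries, 4 correlated best with the same-numbered library among those of the other genotype. No label says what a number marks. The test reported has genotype only, and the replicate block is an alternative. The fibroblast score is the mean log2(CPM + 1) of the 15 fibroblast markers tested.

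Named genes were the 7 members, Bmi1, Cdkn2a, every listed Polycomb gene that passed with the highest and the lowest of each list, and the 2 genes nearest in pattern (protein-coding, at least 10 CPM) to each member with at least 10 CPM. Rnf2, Bcorl1, Cbx1, Npcd, Fbln1, Dcn and Lum were named after their values were seen. Members and lists were chosen with earlier results of these data known.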

Additional observations from a re-analysis of the deposited data

Results flagged for a closer look

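In groups of 4 libraries, 5 of 40 groups of member values had 1 library far from the other 3 by Dixon's test, which chance gives in about 1 in 20 independent groups. CPM, TPM and effective length come from the same reads, so the 40 groups are not independent. The count therefore cannot show an excess over chance. Phc3 stood at 127 CPM in Bmi1-deleted library 2, against 146 to 148 CPM in the other 3 Bmi1-deleted libraries. The same library had 41.7 rescaled TPM of Phc3, against 50.7 to 52.1. Control library 4 had 48.9 rescaled TPM of Phc3, against 55.4 to 56.5 in the other controls, and an effective length of 4931 bases, against 5321 to 5396. The effective length of Cbx7 was 725 bases in control library 2, against 3305 to 3563 bases in the other controls.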

How the results depend on the processing

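Of 139 log2 changes of members under other settings, 128 kept their direction and their side of the threshold. Cbx8 passed with DESeq2 and with the replicate set as a covariate, which made 1 member higher in each, and in no other of its 20 settings; its log2 change ran between 0.23 on log2(TPM + 1) and 1.04. The sign of Cbx7 turned to 0.046 with the replicate block, 0.041 in replicates 3 and 4 alone, 0.20 with inferred sex and 0.10 with the fibroblast score as a covariate, and ran between −0.21 and 0.19 with 1 library left out; on log2 TPM it stayed negative. Phc1 turned to −0.079 on the deposited log2(TPM + 1), while on rescaled log2(TPM + 0.1) it kept its sign, at 0.14. It ran between −0.034 and 0.23 with 1 library left out. The cause was not tested. Over all genes the edgeR counts of 14 higher and 1 lower became 273 and 113 with the replicate block (the pairing changed the call of none of the 7 members), 267 and 119 with the replicate set, 259 and 121 with no filter and 110 and 48 with DESeq2. They were 83 and 73 in replicates 1 and 2 alone and 11 and 6 in replicates 3 and 4 alone. On the deposited log2(TPM + 1) they were 3 and 1, and on rescaled log2(TPM + 0.1) 2 and 0. Genes lower were 3 with DESeq2 size factors, 2 when 10 CPM in 4 libraries was required (Cbx2 is then not tested), and 4 with the fibroblast score. Leaving out 1 library gave 8 to 40 higher, with 40 without control 1, 8 without control 2 and 9 without Bmi1-deleted 2, and 0 to 5 lower. Of 20 ratios and shares set by TPM, 11 moved by over 1 SD in counts per kilobase. At 50 to 174 counts for Cbx2 and Cbx8, depth limits what could be detected.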
